A study of Mus musculus with 6 samples.

Results

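This is the comparison of bone marrow-derived macrophages of the mouse that received LCL161 together with lymphotoxin α1β2 (LTα1β2) with macrophages that received LTα1β2 alone, across all genes. Both groups were treated in vitro for 24 h and hold 2 libraries each, so 4 of the 6 libraries of the series are compared. The remaining 2 libraries are from macrophages given vehicle and are used here for the estimate of spread and as reference levels. Both groups compared contain LTα1β2, and no library of LCL161 alone was analysed here, so the comparison shows what the antagonist adds to the ligand and not what it does by itself. The sources used here do not state mouse strain, age and sex, doses, the make of the ligand or how the precursors were differentiated. Nothing in them says that the replicates were separate mice or dishes, and the p-values then describe the spread of these libraries only, which may be technical.

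LTα1β2 is the membrane form of lymphotoxin, made mainly by lymphocytes, and binds the lymphotoxin beta receptor, which macrophages and stromal cells carry. In resting cells cIAP1 and cIAP2, inhibitor of apoptosis proteins held in a complex by TRAF2 and TRAF3, mark the kinase NIK for destruction. When NIK accumulates, the precursor p100 is cut to p52, which enters the nucleus with RelB: this is the noncanonical NF-kB pathway. The same cIAP proteins also carry the ubiquitin signal from the TNF receptor to canonical NF-kB (RelA and c-Rel) and keep that receptor from starting cell death. LCL161 is a small-molecule mimic of SMAC, the natural antagonist of these proteins, and binding leads to loss of the cIAP proteins themselves. Protein amounts, NIK and p100 processing were not measured here, and all values below are of RNA.

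Levels are given as CPM, reads scaled to a common library size and not to gene length, so they are compared between libraries and not between genes. Each pair of values gives replicate 1 and then replicate 2. "Both agents" stands for LCL161 plus LTα1β2. A log2 change is the level with both agents over that with LTα1β2 alone, and its standard error (SE) is approximate, being the change divided by the square root of the F statistic. A gene is said to have risen or fallen where the adjusted p of edgeR's quasi-likelihood test was under 0.05.

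The libraries held 15958418 and 19049613 reads with LTα1β2 and 14718368 and 14991252 with both agents. The label of macrophages was checked against 10 defining markers, which lay between 101 and 26080 CPM in all 4 libraries. Of the 10, 3 fell, 1 rose and 6 did not pass. Those that fell were Fcgr1 (197 and 195 against 101 and 108 CPM), Csf1r and C1qa, and Adgre1, the F4/80 gene, rose (2080.1 and 2052 against 2841 and 2800.4 CPM). Lyz2 (lysozyme) stood at 24984 and 24458 against 24645 and 26079.5 CPM and did not pass, nor did Cd68, Spi1, Aif1, Tyrobp and Mpeg1. Markers of other cells were present too. The 14 stromal markers summed to 3237 and 4495 CPM with LTα1β2 and 919.7 and 958 CPM with both agents, against 11743 and 8141 CPM in vehicle. Of the 13 tested, 11 fell and none rose, with a median log2 change of -1.98. Col1a1, a chain of type I collagen, had 632 and 936 CPM with LTα1β2 and 161 and 179 CPM with both agents, Acta2 (smooth muscle actin) 869 and 1131 against 264 and 242 CPM, and Col3a1 94.8 and 148 against 13.4 and 16.3 CPM. Dcn (decorin) and Thy1, which are also defining genes of fibroblasts, were near 1 CPM or below in every library and did not pass, although Thy1 was called higher without LTα1β2 replicate 1 (adjusted p = 0.015). The 9 neutrophil markers summed to 1041 and 817 CPM with LTα1β2 and 365 and 388 CPM with both agents, and 5 of them fell (3 without LTα1β2 replicate 1), among them the granule genes Ltf (108 and 97.4 against 9.34 and 17.5 CPM) and Ngp (281 and 216 against 56.5 and 71.4 CPM). In RNA from a whole culture, fewer cells of a type and less RNA per cell cannot be told apart.

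With both agents 1989 of 18812 genes tested rose (10.6%) and 2843 fell (15.1%), in all 25.7%, by edgeR's quasi-likelihood test with Benjamini-Hochberg adjustment. In each of the 4832 genes called, both libraries of one group lay above both of the other. Changes of at least 2-fold were called in 1055 genes that rose (5.61%) and 1530 that fell (8.13%), and changes of at least 8-fold in 131 and 55. The largest changes were thus mostly increases although decreases were more numerous. The median log2 change of all genes tested was 0.0045. Scaling by total counts moved it to -0.12 and DESeq2 to -0.10, and the share of calls that were increases went from 41.2% to 28.0% and 26.4%. Without LTα1β2 replicate 2, 736 genes rose and 1596 fell, without LCL161 plus LTα1β2 replicate 1 1229 and 2186, and without its replicate 2 1288 and 3316. Among the 3523 genes with a mean under 1 CPM the median was 0.80, with 274 higher and 66 lower, whereas among the other 15289 genes it was -0.061, with 1715 higher and 2777 lower. Reads were counted for 36763 to 39020 genes with both agents and for 32170 to 34997 with LTα1β2, despite the smaller totals of the former. Not all members near or under 1 CPM are marked as such below, and what part this shift has in their increases was not tested.

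**Figure D1:**
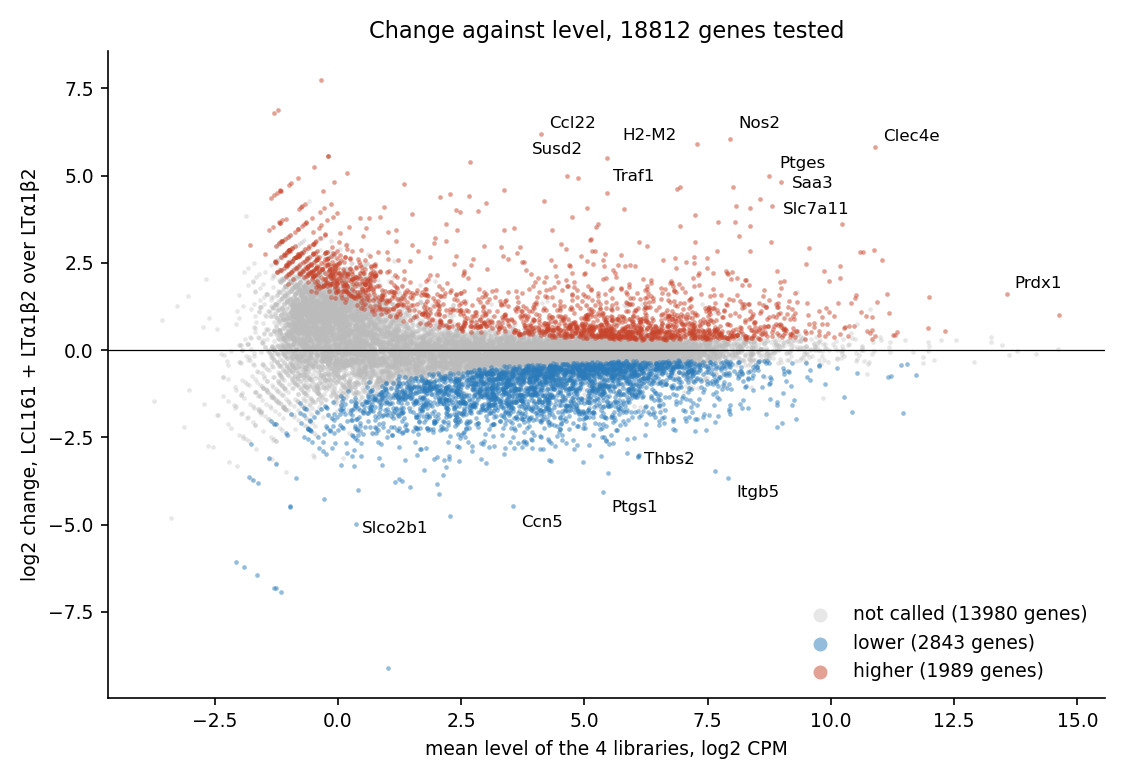
Log2 change with LCL161 plus LTα1β2 over LTα1β2 alone (vertical axis) against the mean level of the 4 libraries in log2 CPM (horizontal axis), 1 point per gene tested. Red points are the 1989 genes that rose, blue points the 2843 that fell and grey points the 13980 that did not pass, and at the left edge the cloud lies above 0, where genes under 1 CPM had a median of 0.80.

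The 15 largest increases included a chemokine, an effector enzyme and a lectin of macrophages. Ccl22, a chemokine that attracts T cells through CCR4, had 0.574 and 0.374 CPM with LTα1β2 and 31.9 and 36.8 CPM with both agents (log2 change 6.18, SE 0.23, edgeR adjusted p = 1.14e-05). It was close to absent with the ligand alone and clearly present in both libraries with the antagonist. Nos2, the inducible nitric oxide synthase, had 5.74 and 8.77 CPM with LTα1β2 and 456 and 518 CPM with both agents (log2 change 6.06, SE 0.22, edgeR adjusted p = 9.13e-06). Clec4e, the C-type lectin Mincle that senses mycobacterial glycolipid and dead cells, had 63.3 and 69.9 CPM with LTα1β2 and 3742 and 3751 CPM with both agents, a 56.2-fold difference (log2 change 5.81, SE 0.16, edgeR adjusted p = 4.81e-06). In vehicle it stood at 59.2 and 46.2 CPM, close to its level with LTα1β2. H2-M2, a nonclassical MHC class I gene, had 4.98 and 5.19 CPM with LTα1β2 and 283 and 329.8 CPM with both agents. The groups of these 4 genes lay far apart, with the replicates close to each other. On GRCm38 (GENCODE M21) Ccl22 lies on chromosome 8 at 94745590 to 94751699, Nos2 on chromosome 11 at 78920787 to 78960254 and Clec4e on chromosome 6 at 123281789 to 123289870.

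The other 11 of the largest increases had log2 changes of 4.49 to 5.51. Ptges, the prostaglandin E synthase that acts after the cyclooxygenases, had 24.1 and 28.5 CPM with LTα1β2 and 767 and 892 CPM with both agents, and Saa3, an acute-phase serum amyloid made by macrophages, 28.9 and 41 CPM with LTα1β2 and 907 and 1067 CPM with both agents. Slc7a2, which imports the arginine that Nos2 uses, had 15.6 and 23.7 CPM with LTα1β2 and 514 and 484 CPM with both agents. Il4i1, an enzyme that degrades aromatic amino acids, had 1.79 and 1.87 against 50.7 and 62.2 CPM, and Adora2a, an adenosine receptor that dampens inflammation, 1.15 and 1.87 against 46.5 and 51.1 CPM. These 5 genes differed 25.3-fold to 31.7-fold between the groups. Traf1, an adaptor that binds the cIAP proteins, had 6.96 and 11.4 CPM with LTα1β2 and 221 and 249 CPM with both agents. Il1a, the cytokine interleukin 1α, had 3.57 and 3.85 CPM with LTα1β2 and 81.9 and 86.1 CPM with both agents. Rasgrp1, Cd247 and Susd2 made up the rest with Cxcl3. Rasgrp1 and Cd247 are best known from T cells, where they act in antigen receptor signalling: Rasgrp1 had 10.1 and 8.5 against 227 and 225 CPM and Cd247 0.893 and 0.748 against 20.1 and 19.8 CPM. Beside them, of the 5 T cell markers tested, including Cd3e, Trac and Lck, none rose. Cxcl3 had no reads in LTα1β2 replicate 2, and its log2 change of 5.38 was 4.25 without that library and 10.74, a fitted value against a group with no reads, without LTα1β2 replicate 1, so its size is poorly known.

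**Figure D2:**
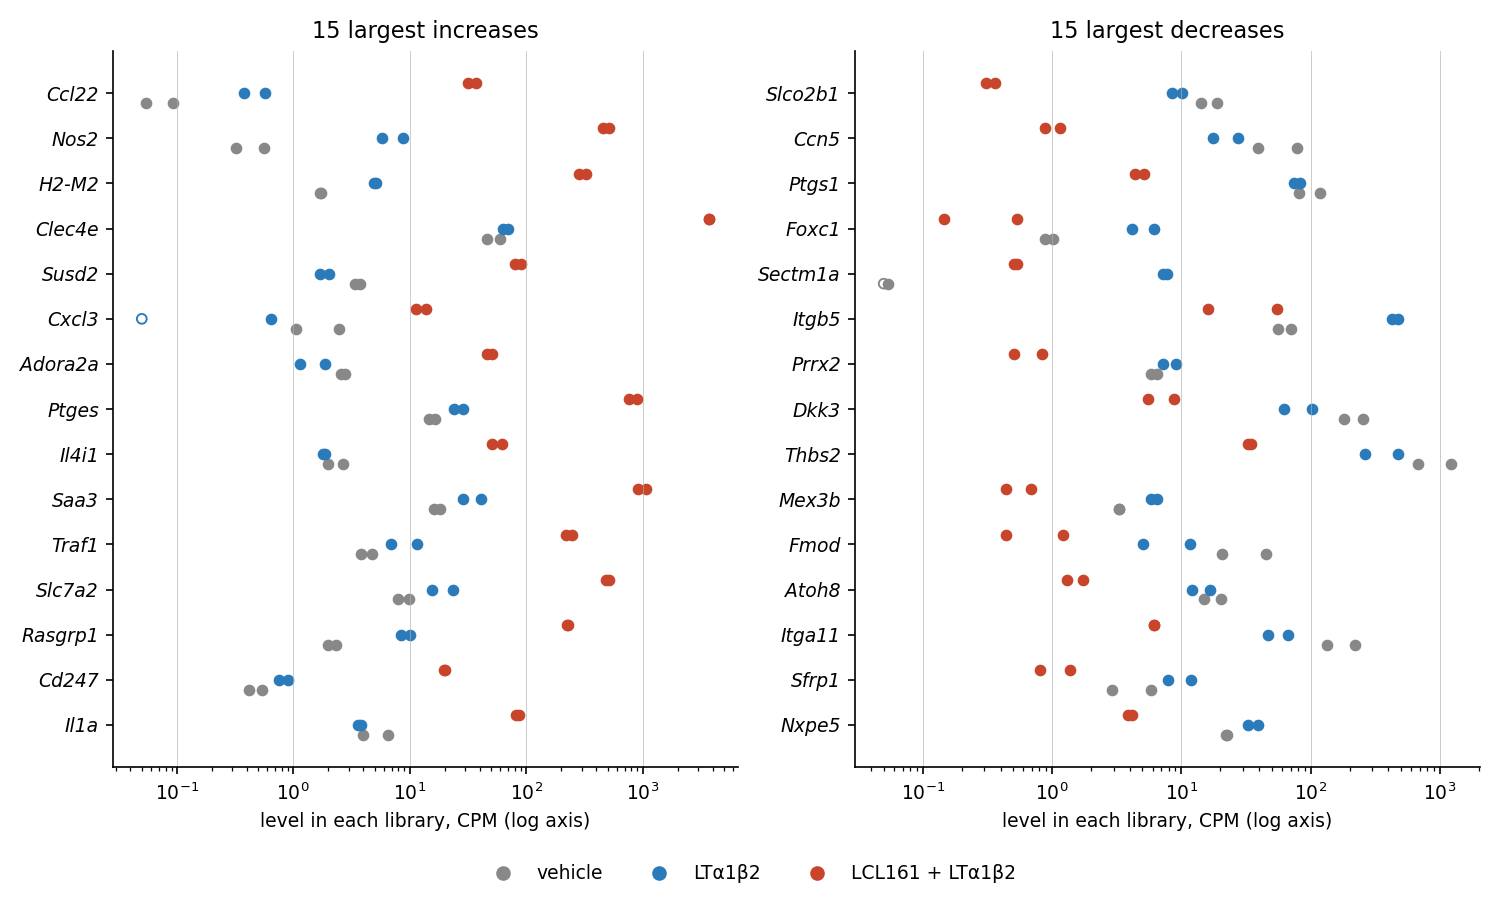
CPM (log scale, horizontal axis) of the 15 largest increases and 15 largest decreases in each of the 6 libraries, by group. Open circles stand for libraries with 0 reads, drawn at 0.05 CPM because a log axis has no 0, and in each of the 30 genes the 2 libraries with both agents lie on one side of the 2 with LTα1β2.

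The largest decreases were smaller and held several kinds of genes. Slco2b1, an organic anion transporter, had 10.2 and 8.45 CPM with LTα1β2 and 0.365 and 0.306 CPM with both agents (log2 change -4.76, SE 0.32, edgeR adjusted p = 0.000101). Ptgs1, the constitutive cyclooxygenase, had 82.9 and 74.7 CPM with LTα1β2 and 5.11 and 4.37 CPM with both agents (log2 change -4.05, SE 0.22, edgeR adjusted p = 4.25e-05), and Sectm1a had 7.27 and 7.81 against 0.511 and 0.536 CPM. In vehicle, Sectm1a stood at 0 and 0.054 CPM and Ptgs1 at 81 and 119 CPM. Itgb5, the integrin β5 subunit, also stood highest with LTα1β2: 472 and 425 CPM with LTα1β2 and 16.1 and 54.9 CPM with both agents, and 55.6 and 70.5 CPM in vehicle. Its 2 libraries with both agents differ, and the log2 change of -3.66 was -3.05 without replicate 1 of that group and -4.87 without replicate 2. Foxc1, a transcription factor of mesenchymal development, moved likewise, from -3.91 to -3.27 and -5.14.

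The remaining decreases included genes best known from connective tissue. Ccn5 (a matricellular protein) had 17.5 and 27.2 against 0.876 and 1.15 CPM, Thbs2 (thrombospondin 2) 265 and 474 against 32.8 and 34.7 CPM, Dkk3 62.8 and 102 against 8.83 and 5.51 CPM, and Itga11, an integrin subunit that binds collagen, 46.9 and 66.5 against 6.13 and 6.13 CPM. All 4 were highest in vehicle, with Thbs2 at 1226 and 679 and Itga11 at 222 and 133 CPM there. They fell beside the stromal markers, whose sums are given above, and what part the stromal cells have in these decreases was not tested. Fmod (fibromodulin) was the exception among the 30 largest changes: its call was lost without LTα1β2 replicate 2 (adjusted p = 0.0542) and without LCL161 plus LTα1β2 replicate 1 (0.0576).

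The components of the pathway itself moved with the antagonist. Of 22 genes of the receptors, cIAP proteins and IKK machinery, 10 rose and 3 fell, against 10.6% and 15.1% of all genes tested, with a median log2 change of 0.37. Birc3, which encodes cIAP2, had 74.9 and 75.4 CPM with LTα1β2 and 205 and 206 CPM with both agents (log2 change 1.45, SE 0.089, edgeR adjusted p = 6.86e-05), and Birc2, which encodes cIAP1, 36.8 and 33.8 CPM with LTα1β2 and 58.2 and 56.5 CPM with both agents (log2 change 0.70, SE 0.10, edgeR adjusted p = 0.00253). The RNA of both targets of the drug was thus higher in the libraries that received it, in both replicates, and both lay above their vehicle levels of 40.0 and 40.5 and 24.5 and 24.1 CPM. Xiap, the related protein that inhibits caspases directly, had 10.7 and 9.94 against 14.2 and 12.6 CPM and did not pass (adjusted p = 0.0894). The 3 members that fell were receptors (5 fell without LCL161 plus LTα1β2 replicate 2): Tnfrsf1a, the TNF receptor 1, had 277 and 279 against 171 and 178 CPM, Tnfrsf12a, the receptor of TWEAK, 73.2 and 93.7 against 31.4 and 34.5 CPM, and Ltbr, the lymphotoxin beta receptor, 101 and 98.2 against 71.5 and 80.6 CPM. The call of Ltbr (adjusted p = 0.0272) was lost without LTα1β2 replicate 1 (0.0686), LTα1β2 replicate 2 (0.0974) or LCL161 plus LTα1β2 replicate 1 (0.112).

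Among the adaptors, Traf2 had 35.4 and 37.5 CPM with LTα1β2 and 75.5 and 83 CPM with both agents (log2 change 1.12, SE 0.10, edgeR adjusted p = 0.000344) and Traf3 32.7 and 39.5 CPM with LTα1β2 and 56.9 and 65.7 CPM with both agents (log2 change 0.76, SE 0.13, edgeR adjusted p = 0.00549). Traf5 and Traf6 also rose (1.17 and 0.83 on the log2 scale), far less than Traf1. Map3k14, which encodes NIK, had 18 and 17.4 against 22.6 and 22.3 CPM and did not pass (adjusted p = 0.0678), except with genes of at least 1 CPM in 2 libraries only (0.0405). NIK is controlled mainly through the stability of the protein, which these data do not show. Its count is uncertain because 1700028N14Rik shares exon sequence with it on that strand. Cd40, a receptor of the same family that also signals through TRAF3 and NIK, had 32.4 and 41.5 CPM with LTα1β2 and 578 and 656 CPM with both agents (log2 change 4.06, SE 0.18, edgeR adjusted p = 1.86e-05), the largest change of the list after Traf1.

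Of the 5 NF-kB subunit genes, 3 rose and none fell. Nfkb2, which encodes p100, had 76.7 and 85.3 CPM with LTα1β2 and 363 and 414 CPM with both agents (log2 change 2.26, SE 0.11, edgeR adjusted p = 2.8e-05), and Relb, its partner, 46.2 and 50.3 CPM with LTα1β2 and 149 and 197 CPM with both agents (log2 change 1.84, SE 0.15, edgeR adjusted p = 0.000213). Rel, the c-Rel gene, had 24.5 and 22.7 against 42 and 39.7 CPM (0.79, SE 0.11). Nfkb1 had 26.4 and 25.8 against 22.2 and 26.8 CPM and did not pass. Rela had 149 and 157 against 93.6 and 252 CPM: the 2 libraries with both agents lie on opposite sides of the LTα1β2 libraries, and no statement on its direction can be made. Counts of Nfkb2 were not whole in any library, and its exons overlap Psd on the other strand, so its level is uncertain where strand was not used.

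**Figure D3:**
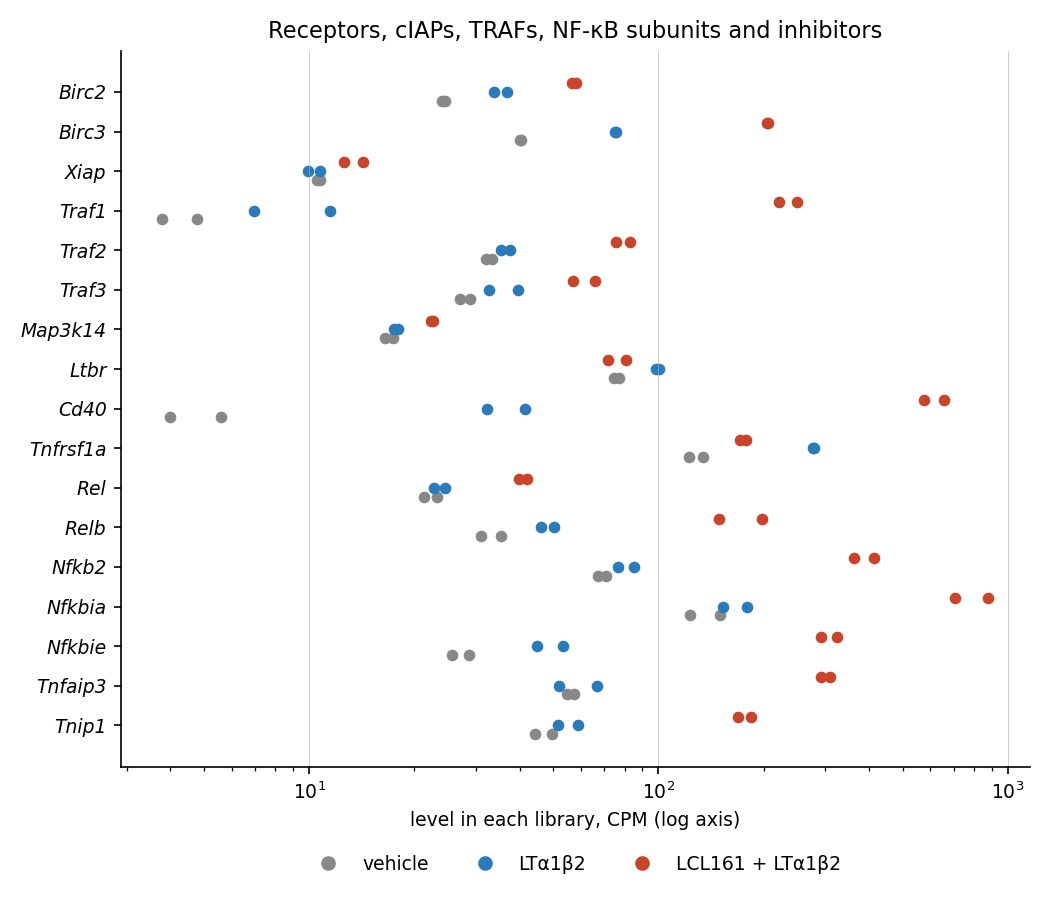
CPM (log scale, horizontal axis) of genes of the receptor, cIAP, TRAF, NF-kB and feedback lists in each of the 6 libraries, coloured by group. Birc2, Birc3, Traf1, Traf2, Traf3, Relb and Nfkb2 have both libraries with LCL161 plus LTα1β2 above both with LTα1β2 and Tnfrsf1a and Ltbr have them below.

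Inhibitors that NF-kB switches on against itself rose alongside. Of 13 IkB proteins and feedback inhibitors 8 rose and none fell, with a median of 0.70. Nfkbia (IkBα), which holds NF-kB in the cytoplasm, had 153 and 179 CPM with LTα1β2 and 706 and 881 CPM with both agents (log2 change 2.25, SE 0.16, edgeR adjusted p = 0.000121), and Nfkbie (IkBε) 44.9 and 53.4 against 292 and 324 CPM (2.65, SE 0.13). Tnfaip3, the ubiquitin-editing enzyme A20, had 51.8 and 66.6 CPM with LTα1β2 and 291 and 310.5 CPM with both agents (log2 change 2.34, SE 0.14, edgeR adjusted p = 5.62e-05), and its partner Tnip1 51.5 and 58.6 against 169 and 184 CPM (1.68, SE 0.12). The levels of Nfkbia, Tnfaip3 and Tnip1 with LTα1β2 alone were close to those in vehicle (123 and 149.8, 57.2 and 54.8 and 44.3 and 49.5 CPM). Nfkbiz, Nfkbid, Bcl3, Zc3h12a and Otulin did not pass, although Nfkbiz was called without LTα1β2 replicate 2 (adjusted p = 0.0301) and with genes of at least 1 CPM in 2 libraries (0.0425), and Otulin, which was lower, without LCL161 plus LTα1β2 replicate 2 (0.00014) and with no filter beyond 1 read (9.33e-12). For Bcl3, a nuclear IkB protein, the libraries with both agents were unequal (56.3 and 48.9 against 52 and 118 CPM), and it was called higher without replicate 1 of that group (adjusted p = 0.000964) and with no filter beyond 1 read (0.00169).

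The kB motif, searched here as GGG, any 2 bases and TTTCC on both strands in the 250 bases before the gene's start, was found in 1.84% of the 12300 tested genes that have a promoter in the RefSeq table (GRCm38.p6) and in 1.41% of all 32851 promoters. It was present in 24 of 697 genes that rose at least 2-fold (3.44%) and in 19 of 1077 that fell at least 2-fold (1.76%). Among the feedback inhibitors it was in 3 of 12 (Nfkbia, Tnfaip3 and Cyld, the last of which lost its call without LTα1β2 replicate 2, at 0.11, or LCL161 plus LTα1β2 replicate 1, at 0.0565), among the chemokines in 4 of 12 (Ccl9, Cxcl1, Cxcl2 and Cxcl3), and among the other NF-kB targets in none of 16. Of the 15 largest increases, 11 have a promoter in the table and 1, Cxcl3, holds the motif. A match is a run of letters and no measured site, and many known sites of this family differ from these letters or lie elsewhere. The sequences below show where it lies in 3 neighbouring neutrophil chemokines of chromosome 5 and in 2 feedback inhibitors, all of which rose. Cxcl3 is shown by the naming rule and the other 4 were chosen after their values were seen. Each runs 5′ to 3′ on the gene's strand, and capitals mark the motif or its reverse complement.
Cxcl3: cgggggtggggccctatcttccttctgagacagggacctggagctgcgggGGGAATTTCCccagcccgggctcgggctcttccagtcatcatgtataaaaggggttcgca
Cxcl1: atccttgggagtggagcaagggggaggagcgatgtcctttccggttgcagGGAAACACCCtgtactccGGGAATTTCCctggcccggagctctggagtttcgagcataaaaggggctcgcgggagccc
Cxcl2: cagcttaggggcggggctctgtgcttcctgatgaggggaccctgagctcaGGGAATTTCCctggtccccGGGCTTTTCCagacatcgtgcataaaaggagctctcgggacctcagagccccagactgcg
Nfkbia: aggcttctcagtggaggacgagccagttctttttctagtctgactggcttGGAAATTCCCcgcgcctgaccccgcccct
Tnfaip3: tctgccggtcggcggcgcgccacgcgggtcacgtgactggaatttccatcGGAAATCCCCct

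They lie at chr5:90785978-90786087, + strand (Cxcl3), chr5:90891106-90891233, + strand (Cxcl1), chr5:90903752-90903880, + strand (Cxcl2), chr12:55492648-55492726, - strand (Nfkbia) and chr10:19015411-19015472, - strand (Tnfaip3). Counted back from the start of the gene, the motif of Cxcl3 spans bases 73 to 64, those of Cxcl1 89 to 80 and 71 to 62, and those of Cxcl2 97 to 88 and 78 to 69. The motif of Nfkbia spans bases 29 to 20 and that of Tnfaip3 bases 12 to 3. The 3 chemokine promoters share the same letters at one match, and Cxcl1 and Cxcl2 have a further one.

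Other known NF-kB targets mostly rose. Of 20 such genes 16 rose and 1 fell, with a median of 2.17. Slc7a11, the cystine importer that feeds glutathione synthesis, had 47 and 50.1 CPM with LTα1β2 and 865 and 834 CPM with both agents (log2 change 4.13, SE 0.15, edgeR adjusted p = 9.13e-06), and Malt1, a paracaspase of NF-kB signalling, 20.3 and 18.6 CPM with LTα1β2 and 294 and 277 CPM with both agents (log2 change 3.88, SE 0.13, edgeR adjusted p = 7.84e-06). Ptgs2, the inducible cyclooxygenase, had 46.8 and 56 CPM with LTα1β2 and 597 and 609 CPM with both agents (log2 change 3.55, SE 0.12, edgeR adjusted p = 7.84e-06). Ptgs2 had stood at 117 and 127 CPM in vehicle, so the LTα1β2 level was the lowest of the 3 groups and that with both agents the highest. Cflar (c-FLIP), which blocks caspase 8, had 94.4 and 117 against 449 and 433 CPM (2.06, SE 0.12). The adhesion molecules Icam1 (310.4 and 327 against 1399.5 and 1660.3 CPM) and Vcam1 (73.8 and 87.2 against 595 and 559 CPM) rose as well. The survival genes Bcl2a1a, Bcl2a1b and Bcl2a1d rose by 4.09, 1.56 and 3.54 on the log2 scale. These are near-identical copies with fractional counts, so the division of reads among them is uncertain. The exception, Lcn2, an iron-trapping protein also made by neutrophils, whose markers fell as well, had 79.1 and 68.6 against 39.4 and 42 CPM (log2 change -0.86, SE 0.16, edgeR adjusted p = 0.00651). What part neutrophils have in its decrease was not tested. Plau lost its call with DESeq2 (0.0826) and without 3 of the 4 libraries in turn (0.0628 to 0.13).

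Of 9 genes known as targets of the noncanonical branch in stroma and lymphoid organs, Ccl19, Ccl21a, Cxcl13 and Madcam1 did not pass the filter on low counts. Of the 5 tested Ccl22 rose and Cxcl12 fell (47.9 and 66.2 against 17.4 and 15.3 CPM). Each direction thus holds 20% of the 5, beside 10.6% and 15.1% of all genes tested. Cxcl12 is also a stromal marker and fell beside others of that list, and the part of stromal cells in its decrease was not tested. Tnfsf13b (BAFF), Tnfsf11 and Ccl17 did not pass.

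Secreted inflammatory factors rose more often than they fell. Of 23 cytokines and TNF family ligands 12 rose and 2 fell, with a median of 1.58. Tnf had 82.6 and 96.1 CPM with LTα1β2 and 399.9 and 448 CPM with both agents (log2 change 2.25, SE 0.12, edgeR adjusted p = 4.68e-05), and 22 and 25.1 CPM in vehicle, so the order was vehicle, LTα1β2, both agents. Il12b, the p40 chain of interleukins 12 and 23, had 0.702 and 0.428 CPM with LTα1β2 and 10.3 and 13.7 CPM with both agents (log2 change 4.41, SE 0.31, edgeR adjusted p = 0.000122). Il1b had 16.3 and 16.1 against 57.8 and 76.6 CPM (2.05, SE 0.17), and Il1rn, the antagonist of the interleukin 1 receptor, rose by 3.67. Il15, Il27 and Tnfsf15 rose by 1.62, 1.61 and 1.58, and Tnfsf9, the 4-1BB ligand, had 2.68 and 3.48 against 17.5 and 20.1 CPM (2.60, SE 0.19). Il6 (log2 change 1.15, adjusted p = 0.159) and Il10 did not pass, nor did Ifnb1, the interferon β gene. The 2 that fell were Csf1, the growth factor of macrophages (513 and 635 against 306 and 291 CPM), and Tnfsf14 (2.11 and 2.09 against 0.584 and 0.842 CPM), whose call was lost with DESeq2 (0.0833) and without LTα1β2 replicate 1 (0.0605), LTα1β2 replicate 2 (0.0977) or LCL161 plus LTα1β2 replicate 1 (0.12). Stromal cells also make Csf1, and stromal markers fell beside it, but the part of these cells in its decrease was not tested.

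Of 19 chemokine genes 13 rose and 1 fell, with a median of 1.95. The neutrophil attractants Cxcl1, Cxcl2 and Cxcl3, whose promoters are printed above, rose together: Cxcl2 had 3.45 and 3.31 CPM with LTα1β2 and 35.6 and 38.3 CPM with both agents (log2 change 3.45, SE 0.15, edgeR adjusted p = 1.53e-05) and Cxcl1 0.383 and 1.07 CPM with LTα1β2 and 5.33 and 8.81 CPM with both agents (3.22, SE 0.43). In vehicle Cxcl2 stood at 17.7 and 19.9 CPM, between the other groups. The log2 change of Cxcl1 was 4.14 without LTα1β2 replicate 2. The monocyte and T cell attractants Ccl3 (7.27 and 8.71 against 43.3 and 44.4 CPM), Ccl4 (log2 change 1.95) and Ccl5 (141 and 209.6 against 1210.0 and 1443 CPM) rose, as did Ccl9 (28.7 and 28.3 against 128 and 108 CPM). Ccl9 and Ccl3 also stood lower with LTα1β2 than in vehicle (155 and 135 and 17.7 and 16.3 CPM). The ligands of CXCR3 all rose: Cxcl9 had 611 and 821 against 1386 and 1441 CPM (0.98, SE 0.14), Cxcl11 rose by 3.45 and Cxcl10 by 1.77, although its call was lost with DESeq2 (0.197) and without either LTα1β2 library (0.0818 and 0.0547). The ligands of CCR2, Ccl2, Ccl7, Ccl8 and Ccl12, did not pass, although Ccl2 (log2 change 0.33) was called without LTα1β2 replicate 2 (0.0216) and Ccl12 (0.80) with no filter beyond 1 read (0.0306). Ccl6 was the single chemokine that fell (53 and 41.1 against 21.5 and 20.7 CPM), joined by Ccl17 without LCL161 plus LTα1β2 replicate 1 (0.0245) and with no filter beyond 1 read (0.027).

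**Figure D4:**
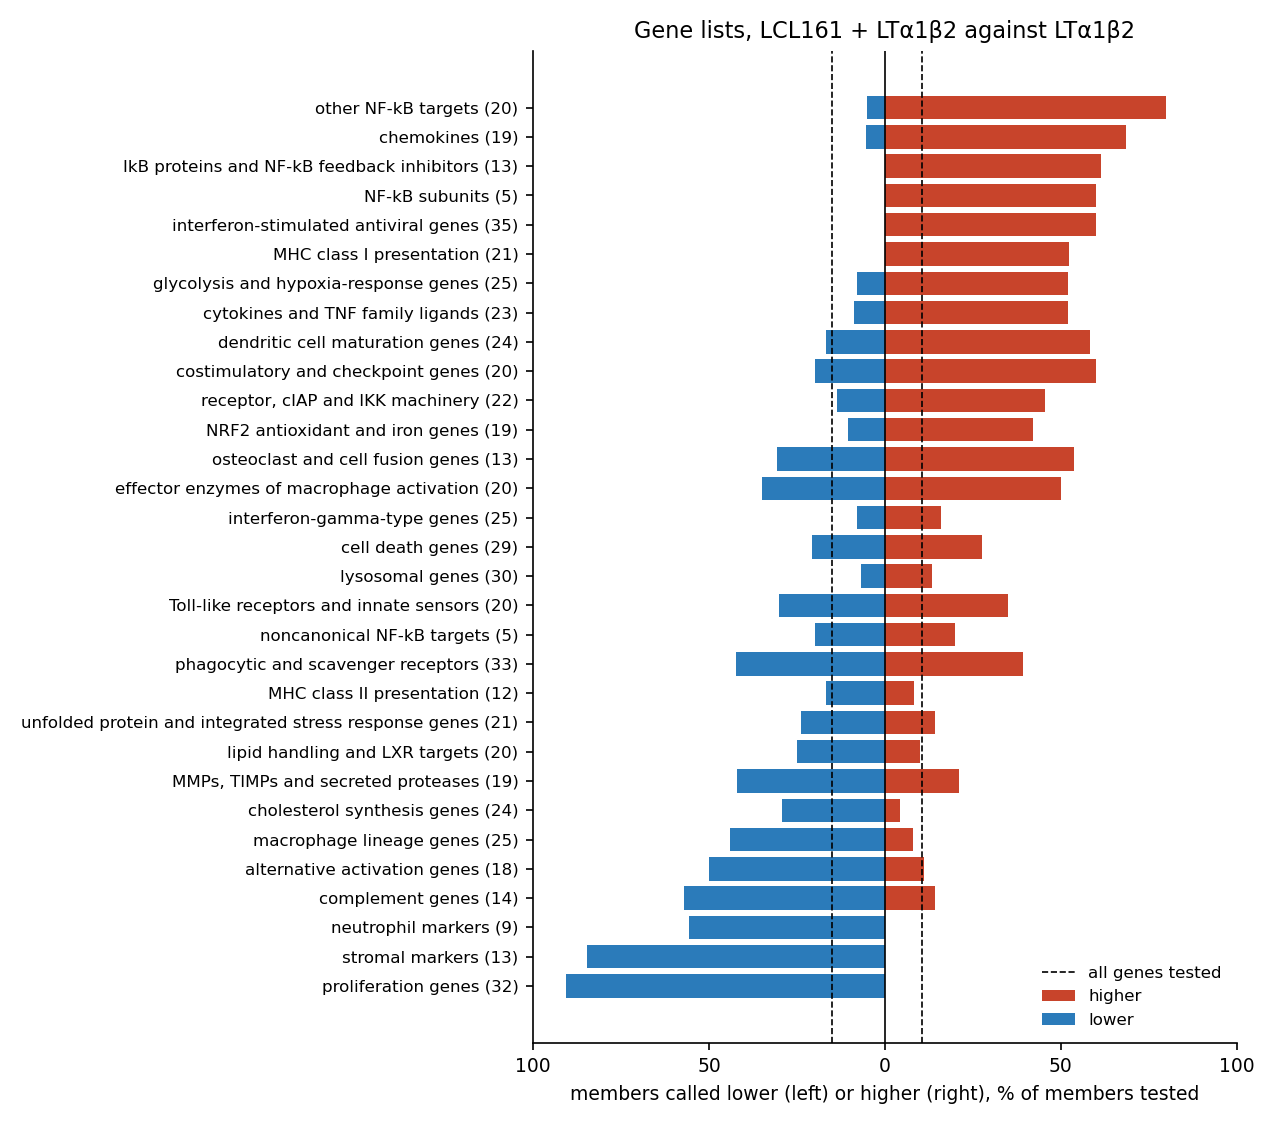
Members of each gene list that rose (to the right) and fell (to the left) with LCL161 plus LTα1β2 against LTα1β2, as percent of the members tested. Dashed lines give the shares of all 18812 genes, 10.6% and 15.1%, and the other NF-kB targets (16 of 20 higher) and the proliferation genes (29 of 32 lower) lie farthest out on either side.

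The interferon lists did not move as a single block. Of 25 genes typical of interferon gamma, 4 rose, 2 fell (5 with total counts) and 19 did not pass, with a median of -0.085. That is 16% higher and 8% lower, beside 10.6% and 15.1% of all genes tested. Members stood far above vehicle with LTα1β2 already: Gbp2, a guanylate-binding GTPase, had 2292 and 2449 CPM with LTα1β2 and 2273 and 2343 CPM with both agents against 14 and 8.32 CPM in vehicle. Igtp had 809 and 850.5 against 718 and 761 CPM and Irf1 945 and 1034 against 1068 and 1173 CPM, and none of the 3 passed. A p over the threshold does not show equal levels. The 4 that rose were Nos2, Cxcl9, Ubd and Gbp5. Ubd, a ubiquitin-like modifier, had 14.2 and 14.5 CPM with LTα1β2 and 119 and 129 CPM with both agents and no reads in vehicle (log2 change 3.11, SE 0.12, edgeR adjusted p = 2.36e-05). Nos2, Cxcl9 and Ubd are also known to respond to NF-kB, and its part in their increases was not tested. The call of Gbp5 was lost with DESeq2 (0.112) and without either LTα1β2 library (0.0539 and 0.0547), and that of Ciita, which fell with Gbp8, without LTα1β2 replicate 2 (0.0684). Exons of Gbp8 overlap Gbp4 and Gbp9.

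The antiviral genes, which type I interferon induces most, rose more often: 21 of 35 rose and none fell, with a median of 1.19. Ifi205, a DNA-binding protein of the AIM2 family, had 48.8 and 57.1 CPM with LTα1β2 and 509 and 504 CPM with both agents (log2 change 3.26, SE 0.28, edgeR adjusted p = 0.000243), with counts that were not whole. Ifih1 (MDA5), a sensor of double-stranded RNA, had 34.2 and 36.5 CPM with LTα1β2 and 129 and 111 CPM with both agents (log2 change 1.76, SE 0.15, edgeR adjusted p = 0.000263), Parp14 232 and 259 against 612 and 546 CPM (1.24, SE 0.15) and Trim30a 85.1 and 93.9 against 182 and 182 CPM (1.02, SE 0.13). Oasl1 had 28.2 and 35.8 against 179 and 218 CPM (log2 change 2.63, SE 0.36, edgeR adjusted p = 0.00176). Isg15, a ubiquitin-like protein, had 51.6 and 63.3 CPM with LTα1β2 and 240.4 and 273 CPM with both agents, and Rsad2 (viperin), which blocks viral replication, 38.8 and 43.4 CPM with LTα1β2 and 265 and 254 CPM with both agents. Their groups are well separated and their adjusted p is nonetheless 0.0135 and 0.0129, and the vehicle libraries, which share the estimate of spread, differ from each other (14.7 and 3.4 and 16.4 and 2.59 CPM). Without LTα1β2 replicate 1 or 2 the count of antiviral genes that rose was 11 and 10, and Isg15, Rsad2, Ifit1 and Mx1 were not called (adjusted p 0.0671 to 0.103). In the alternatives that left none of the 4 compared libraries out, the count ranged from 15 to 29. With only the 4 libraries compared, Ifit2, Ifit3, Ifit3b, Oas3, Usp18, Irf7 and Ifi44 were called higher (edgeR adjusted p 0.000161 to 0.00833). Ifnb1 did not pass, as given above (log2 change 1.86, edgeR adjusted p = 0.0632). Its log2 change was 1.56 to 2.09 in the 9 alternatives that gave a value, and interferon alpha genes were not analysed here.

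**Figure D5:**
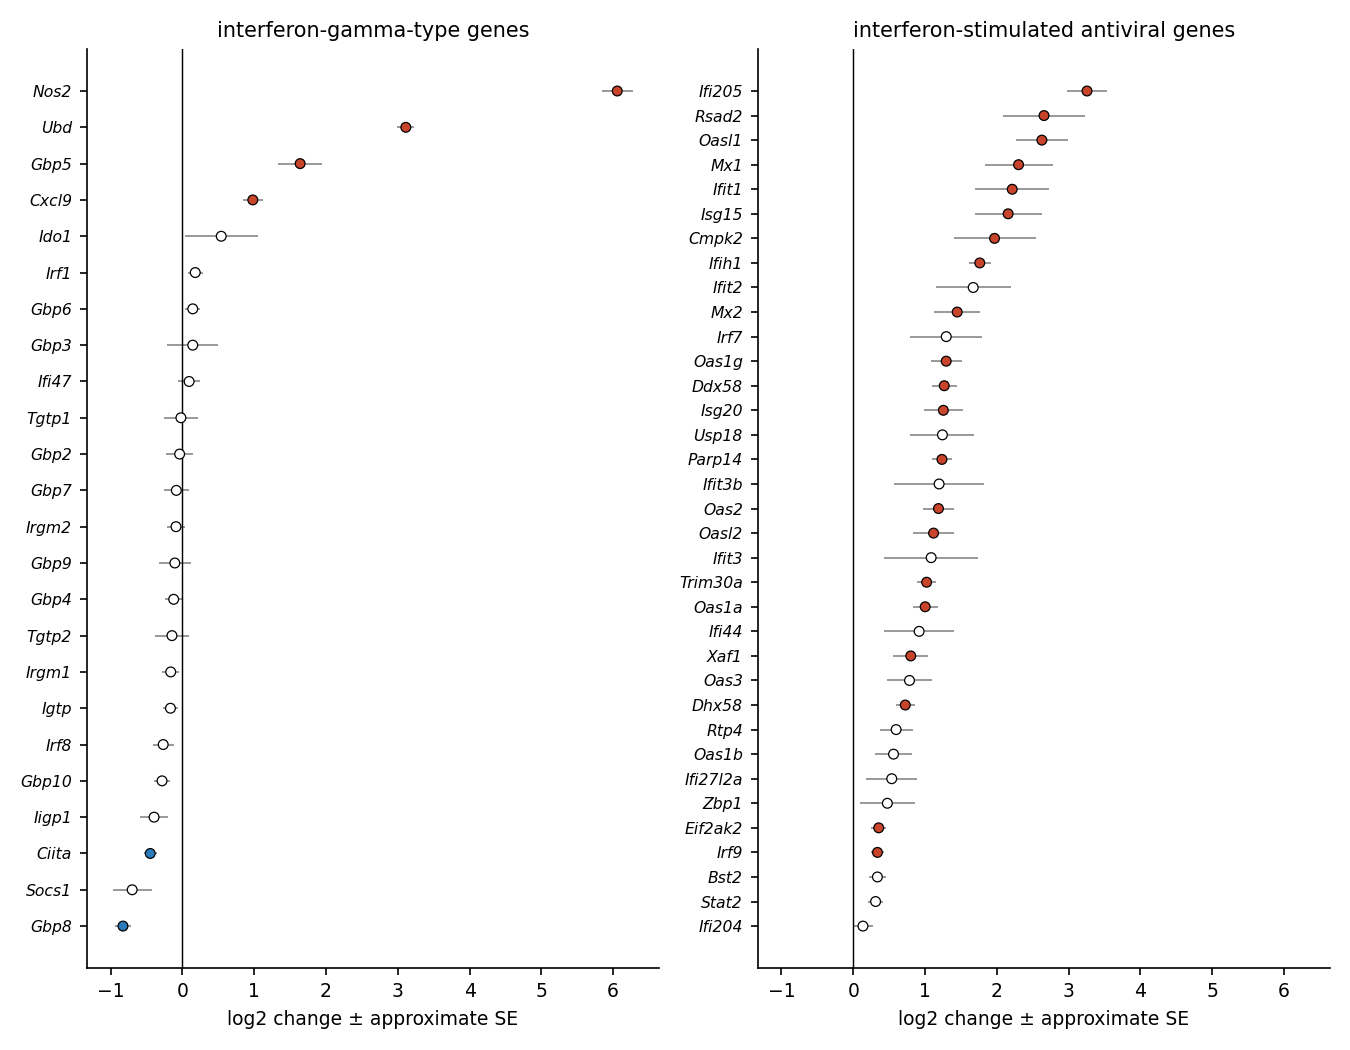
Log2 change with LCL161 plus LTα1β2 over LTα1β2 alone (horizontal axis, points with approximate SE as bars) of the members of the interferon-gamma-type list (left, 1 member not drawn) and the antiviral list. Red points rose, blue points fell and white points did not pass the test, and the antiviral genes (right) spread to the right of 0 around a median of 1.19 while the other list centres near 0.

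The core of the interferon-stimulated response element, searched as GAAA, any 2 bases and GAAA on both strands in the same 250 bases, was in 12 of the 24 antiviral genes with a promoter (50%), in 3.43% of all genes tested and in 2.98% of all promoters of the table. It was in 43 of 697 genes that rose at least 2-fold (6.17%) and in 47 of 1077 that fell at least 2-fold (4.36%). Of the 12 antiviral genes with it, Ifit3, Ifit3b, Oas3, Stat2 and Bst2 did not pass. None of the 24 held the kB motif. The promoters of Isg15, Rsad2 and Ifit1, chosen after their values were seen, are shown because they carry it once (Rsad2), at a pair of places (Ifit1) and as 3 overlapping matches (Isg15), with capitals marking it or its reverse complement.
Isg15: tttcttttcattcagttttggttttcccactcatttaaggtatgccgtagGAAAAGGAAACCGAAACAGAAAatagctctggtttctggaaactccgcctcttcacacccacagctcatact
Rsad2: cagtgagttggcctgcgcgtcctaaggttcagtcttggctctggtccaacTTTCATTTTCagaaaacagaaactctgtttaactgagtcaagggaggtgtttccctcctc
Ifit1: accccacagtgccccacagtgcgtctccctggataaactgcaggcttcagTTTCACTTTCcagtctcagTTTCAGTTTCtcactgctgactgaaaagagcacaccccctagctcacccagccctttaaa

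These lie at chr4:156200825-156200946, - strand (Isg15), chr12:26456513-26456622, - strand (Rsad2) and chr19:34640735-34640863, + strand (Ifit1) of GRCm38.p6, with matches from 78 to 57, from 120 to 111, and from 104 to 95 and 85 to 76 bases before the gene's start.

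Antigen presentation genes changed by smaller steps. Of 21 genes of MHC class I presentation 11 rose and none fell, with a median of 0.40. H2-Q7, a nonclassical class I gene, had 112 and 135 CPM with LTα1β2 and 456 and 536 CPM with both agents (log2 change 2.00, SE 0.18, edgeR adjusted p = 0.000294) and H2-Q6 similar values, and the 2 copies are too alike for their counts to be told apart. Psme2, a subunit of the proteasome activator, had 528 and 562 against 1143 and 1223 CPM (1.12, SE 0.11), and B2m, the shared light chain, 4170.4 and 4088 against 6104 and 5899 CPM (0.54, SE 0.098). The class I count was 3 without LTα1β2 replicate 1, 4 without LTα1β2 replicate 2, 6 without LCL161 plus LTα1β2 replicate 2 and 7 with DESeq2, and B2m and H2-K1 lost their calls without either LTα1β2 library. Of 12 class II genes H2-Oa rose, Ciita and Lgmn fell, and the chains H2-Aa (1093 and 1069 against 1322 and 1391 CPM) and H2-Ab1 (2697 and 2524 against 2865 and 3521 CPM) did not pass, the former except with only the 4 libraries compared (0.027). The class II shares, 8.33% higher and 16.7% lower, lie near the 10.6% and 15.1% of all genes tested. Lgmn, a lysosomal protease, had 689.6 and 566 against 237 and 243 CPM (log2 change -1.39, SE 0.13, edgeR adjusted p = 0.000311). The nonclassical H2-M2 of the largest increases belongs to neither list.

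Costimulatory genes changed more. Of 20 costimulatory and checkpoint genes 12 rose and 4 fell, with a median of 1.03. Cd86, a ligand of CD28 on T cells, had 57.8 and 51.3 CPM with LTα1β2 and 119 and 122 CPM with both agents (log2 change 1.14, SE 0.12, edgeR adjusted p = 0.000479), whereas Cd80 had 6.13 and 5.99 against 5.4 and 6.66 CPM and did not pass. Tnfsf4, the OX40 ligand, had 0.255 and 0.107 CPM with LTα1β2 and 5.76 and 4.06 CPM with both agents (4.75, SE 0.52), a log2 change that was 5.37 without LTα1β2 replicate 1, and Slamf1 0.893 and 0.748 CPM with LTα1β2 and 13.3 and 17.4 CPM with both agents (4.22, SE 0.25). Cd274, which encodes the inhibitory ligand PD-L1, had 686 and 596 CPM with LTα1β2 and 1614 and 1638 CPM with both agents (log2 change 1.34, SE 0.15, edgeR adjusted p = 0.000649). Stimulating and inhibiting ligands thus rose side by side. The inhibitory receptor genes Pilra and Lilrb4a of this list also rose, so such receptors did not move in one direction. The members that fell were inhibitory receptors or ligands: Havcr2 (TIM-3) had 42.2 and 31.8 CPM with LTα1β2 and 5.98 and 5.05 CPM with both agents (log2 change -2.74, SE 0.19, edgeR adjusted p = 0.000119), Vsir (VISTA) 385 and 365 CPM with LTα1β2 and 107 and 115 CPM with both agents (log2 change -1.76, SE 0.12, edgeR adjusted p = 0.000114) and Siglecg 9.13 and 10.2 against 3.06 and 2.83 CPM (-1.71, SE 0.16). Cd276, the last of them, lost its call without any 1 of the 4 libraries (0.0511 to 0.0996).

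Of 24 genes known from the maturation of dendritic cells 14 rose and 4 fell, with a median of 1.24. Spint2, a protease inhibitor, had 1.79 and 1.76 CPM with LTα1β2 and 31.2 and 37.4 CPM with both agents (log2 change 4.27, SE 0.18, edgeR adjusted p = 1.53e-05), Apol7c 8.17 and 9.89 CPM with LTα1β2 and 61.6 and 68.2 CPM with both agents (log2 change 2.84, SE 0.19, edgeR adjusted p = 9.55e-05) and Cd83, a surface marker of mature dendritic cells, 37.7 and 31.8 CPM with LTα1β2 and 89.6 and 85.7 CPM with both agents (1.34, SE 0.12). Those that fell were Fscn1 (fascin, 64.1 and 98.5 against 32 and 27 CPM), Socs2, Cacnb3 and Marcks. Fscn1 is a defining gene of mature dendritic cells and moved against the list, and Ccr7, their homing receptor, had 1.02 and 0 against 2.26 and 2.07 CPM and passed only with no filter beyond 1 read (0.00342) or without LTα1β2 replicate 1 (0.00546). Among the 8 markers of dendritic cells as a lineage, Siglech and Cd209a rose from levels near 2 CPM or below, but Flt3, Zbtb46, Xcr1, Clec9a, Batf3 and Itgae did not pass. Both calls were lost with DESeq2 and without 3 of the 4 libraries in turn.

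Of 20 enzymes that macrophages use as effectors 10 rose and 7 fell, with 5 that rose without LTα1β2 replicate 2. Beside Nos2 and the arginine importer Slc7a2 of the largest increases, Gch1, which makes the cofactor of Nos2, had 19.7 and 21.5 CPM with LTα1β2 and 107 and 113 CPM with both agents (log2 change 2.41, SE 0.11, edgeR adjusted p = 1.81e-05), and Acod1, which makes itaconate, 424 and 481 CPM with LTα1β2 and 3270.1 and 3312 CPM with both agents (log2 change 2.86, SE 0.11, edgeR adjusted p = 1.15e-05). Arg1, the arginase that competes with Nos2, had 6 and 4.76 CPM with LTα1β2 and 1.82 and 1.99 CPM with both agents (log2 change -1.49, SE 0.28, edgeR adjusted p = 0.00744), and Arg2 did not pass. The oxidase subunit Cybb had 2102 and 2108 CPM with LTα1β2 and 6249 and 5895 CPM with both agents (log2 change 1.53, SE 0.12, edgeR adjusted p = 0.000163). The lipid mediator genes moved in both directions. Ptgs2 and Ptges, the inducible pair that makes prostaglandin E2, rose 11.7-fold and 31.5-fold, whereas Ptgs1 fell. Tbxas1 (thromboxane synthase) had 304 and 290.2 CPM with LTα1β2 and 97.5 and 101 CPM with both agents (log2 change -1.58, SE 0.11, edgeR adjusted p = 0.000122), and Hpgds (prostaglandin D synthase) 75.3 and 68.8 CPM with LTα1β2 and 22.8 and 28.3 CPM with both agents (log2 change -1.50, SE 0.14, edgeR adjusted p = 0.000321). Alox5 (7.53 and 3.53 against 1.31 and 1.46 CPM) and Alox5ap (95.5 and 79.8 against 43.1 and 46 CPM), which begin leukotriene synthesis, fell as well. Hdc, which makes histamine, lost its call without LTα1β2 replicate 1 (0.0696) or LCL161 plus LTα1β2 replicate 1 (0.0753).

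Receptors for uptake split almost evenly, 13 of 33 rising and 14 falling. The Fc receptor genes Fcgr4 (237 and 231 against 77.4 and 79.5 CPM, -1.58, SE 0.092) and Fcgr1 (197 and 195 against 101 and 108 CPM, -0.90, SE 0.092) fell to levels that remained above vehicle (14.9 and 14.1 and 33.4 and 32.3 CPM), while the inhibitory Fcgr2b rose. The bridging proteins that mark dead cells for uptake, Gas6 (65 and 68.1 against 16.6 and 18.7 CPM, -1.92, SE 0.11) and Pros1 (57.2 and 55.2 against 19.8 and 17.8 CPM, -1.57, SE 0.11), fell. Of their receptors Mertk rose (374 and 367 against 602 and 609 CPM, 0.71, SE 0.12), Tyro3 fell and Axl did not pass. Mrc1, the mannose receptor, had 28.3 and 30.6 CPM with LTα1β2 and 5.84 and 4.6 CPM with both agents (log2 change -2.49, SE 0.16, edgeR adjusted p = 8.71e-05). The scavenger receptors Marco (178 and 223 against 587 and 594 CPM) and Olr1 (0.893 and 0.802 against 13.4 and 13.6 CPM) rose, as did Itgax (32 and 32.6 against 108 and 94.2 CPM), the CD11c gene.

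Genes linked to alternative activation and to the macrophage lineage fell more often than they rose. Of 18 alternative activation genes 9 fell and 2 rose, with a median of -1.04. Stromal and neutrophil markers fell beside the genes of this list, and the part of those cells in its decreases was not tested. Il4ra, the interleukin 4 receptor chain, had 414 and 415 CPM with LTα1β2 and 188 and 211 CPM with both agents (log2 change -1.06, SE 0.096, edgeR adjusted p = 0.000307), and Trem2, a lipid sensor, 446 and 389 CPM with LTα1β2 and 192 and 218 CPM with both agents (log2 change -1.03, SE 0.14, edgeR adjusted p = 0.00159). Chil3, Fn1, Arg1, Mrc1 and Tfrc fell as well, as did Cd163 and F13a1, whose calls were lost without LTα1β2 replicate 1 (0.065 and 0.0521) and another library each, and Egr2 (9.51 and 6.9 against 48.8 and 56.5 CPM, 2.69, SE 0.17) and Ccl22 rose. Of 25 macrophage lineage genes 11 fell and 2 rose, Csf2rb and Adgre1, both of which lost their calls without any 1 library. Cx3cr1, the fractalkine receptor, had 32.3 and 29.2 CPM with LTα1β2 and 7.59 and 7.2 CPM with both agents (log2 change -2.05, SE 0.13, edgeR adjusted p = 7.1e-05). Csf1r, the receptor of the growth factor that sustains these cells, had 3421 and 3345 against 2507 and 2621 CPM, and its call (adjusted p = 0.0412) was lost without any 1 library (0.0601 to 0.146). C1qa, C1qb and C1qc also fell, C1qa without a call when any of 3 libraries was left out (0.0601 to 0.115). Of the complement genes C3 (554 and 645 against 3593 and 3584 CPM, 2.58, SE 0.11) and Cfb (377 and 415 against 2573 and 3040.5 CPM, 2.82, SE 0.12), the core of the alternative pathway, rose, whereas 8 of the 14 fell, among them C3ar1 (845 and 716 against 392 and 373 CPM), C5ar1 and the C1q chains. C3 and Cfb stood at 69 and 72.9 and 3.7 and 3.46 CPM in vehicle, the lowest of the groups.

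Among 20 Toll-like receptors and innate sensors 7 rose and 6 fell. Those of bacterial lipoproteins rose, Tlr2 (129.5 and 149 against 377 and 372 CPM, 1.43, SE 0.10), Tlr1 (41.7 and 38.4 against 119 and 111 CPM, 1.52, SE 0.10) and Tlr6, together with the inflammasome gene Nlrp3 (23.7 and 34.1 against 87.1 and 88.8 CPM, 1.60, SE 0.17), Aim2, Cgas and Tlr7. Tlr4, the receptor of lipopolysaccharide, had 138 and 126 against 98.8 and 94.2 CPM (-0.46, SE 0.097), and Tlr5, Tlr8 (121 and 101 against 33.6 and 27.2 CPM), Tlr11, Tlr12 and Tlr13 fell with it, Tlr5 and Tlr11 without a call when LTα1β2 replicate 2 was left out (0.076 and 0.102). Of 29 cell death genes 8 rose and 6 fell, with a median of 0.11 (5 rose without LTα1β2 replicate 1). Fas, a death receptor, had 11.6 and 12.9 CPM with LTα1β2 and 44.5 and 41.9 CPM with both agents (log2 change 1.82, SE 0.13, edgeR adjusted p = 0.000122), and Casp4, the inflammatory caspase 11, 25.5 and 24 CPM with LTα1β2 and 69.9 and 69.2 CPM with both agents (log2 change 1.49, SE 0.18, edgeR adjusted p = 0.000938). Ripk3, the kinase of necroptosis, had 46.5 and 49.8 CPM with LTα1β2 and 22.3 and 25 CPM with both agents (log2 change -1.03, SE 0.11, edgeR adjusted p = 0.000635). Casp8 (90.9 and 97.6 against 89 and 86.3 CPM), Ripk1 (148 and 141 against 138 and 132 CPM) and Mlkl (54.9 and 64.7 against 79.8 and 78.9 CPM) did not pass, although Mlkl was called with only the 4 libraries compared (0.0486) and with genes of at least 1 CPM (0.0441). The shares of the cell death list are 27.6% higher and 20.7% lower, beside 10.6% and 15.1% of all genes tested. Cell death itself was not measured.

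Genes of osteoclasts and cell fusion, a fate that macrophages can take through NF-kB, gave 7 higher and 4 lower of 13. Dcstamp, which drives fusion, had 5.81 and 5.99 CPM with LTα1β2 and 47.4 and 40.4 CPM with both agents (log2 change 2.89, SE 0.25, edgeR adjusted p = 0.000239), Acp5 (tartrate-resistant acid phosphatase) 14.2 and 12.9 against 36.5 and 44.1 CPM (1.58, SE 0.14), Src 9.19 and 14.5 against 60.9 and 81.9 CPM (2.58, SE 0.24) and Clcn7 755 and 765 against 1830.2 and 2051 CPM (1.35, SE 0.11). Nfatc1, the master transcription factor of osteoclasts, fell (93.8 and 101 against 63.5 and 65.1 CPM, -0.60, SE 0.095), with Itgb3 and Fos. The calls of Mmp9, which rose, and Ctsk, which fell, were lost without LTα1β2 replicate 2 (0.0773 and 0.0628). Of 30 lysosomal genes 4 rose (13.3%) and 2 fell (6.67%), with 24 that did not pass. These shares lie near or below the 10.6% and 15.1% of all genes tested. Ctsz had 1519.5 and 1492 against 2893 and 3372 CPM (1.06, SE 0.13), the proton pump subunits Atp6v1h and Atp6v1a rose by 0.74 and 0.71, and Ctsl had 520.2 and 471 against 303 and 288 CPM (-0.75, SE 0.1). The count of lysosomal genes that fell was 6 with total counts or DESeq2, and 1 without either LTα1β2 library or LCL161 plus LTα1β2 replicate 1, where Grn was lost. Secreted proteases and their inhibitors gave 4 higher and 8 lower of 19 (2 and 4 without LTα1β2 replicate 2, and 5 lower without LCL161 plus LTα1β2 replicate 1). Mmp14 had 339 and 391 against 756 and 885 CPM (1.17, SE 0.12) and Adamts1 21.2 and 30.3 against 5.76 and 4.29 CPM (-2.36, SE 0.23). Adamts1 and Mmp2 are also made by stromal cells, whose markers fell beside them, and the part of these cells was not tested.

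Of 25 genes of glycolysis and the response to hypoxia 13 rose and 2 fell, with a median of 0.38 (8 rose without LTα1β2 replicate 1). Hif1a, the oxygen-regulated transcription factor, had 251 and 238 CPM with LTα1β2 and 599 and 561 CPM with both agents (log2 change 1.24, SE 0.093, edgeR adjusted p = 0.000148), the glucose importer Slc2a1 133 and 149 CPM with LTα1β2 and 241 and 257 CPM with both agents (log2 change 0.82, SE 0.099, edgeR adjusted p = 0.00101), and Bnip3 79.5 and 79 against 143 and 158 CPM (0.92, SE 0.095). Vegfa, a target of the same factor, moved the other way (252 and 267 against 133 and 154 CPM, -0.85, SE 0.11). Of 19 NRF2 antioxidant and iron genes 8 rose and 2 fell. Prdx1, a peroxiredoxin that removes hydrogen peroxide, had 6170.4 and 5781 CPM with LTα1β2 and 18522 and 17880.4 CPM with both agents (log2 change 1.61, SE 0.13, edgeR adjusted p = 0.000202). Hmox1, which degrades haem, had 1079 and 1091 against 2771 and 2894 CPM (1.38, SE 0.16), Srxn1 249 and 206 against 572 and 548 CPM (1.30, SE 0.11) and the iron store Fth1 17259.8 and 16617 against 33030.0 and 34841 CPM. Nqo1, Gclc and Gclm, which are standard targets of NRF2, did not pass, although Gclc was called lower without LCL161 plus LTα1β2 replicate 2 (0.000139) and with no filter beyond 1 read (0.000293). Tfrc, the transferrin receptor, fell (55.3 and 48.8 against 36 and 36.9 CPM, -0.51, SE 0.10).

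Of 20 lipid genes 2 rose (10%) and 5 fell (25%), beside 10.6% and 15.1% of all genes tested. The count that fell was 3 without LTα1β2 replicate 2, 8 with DESeq2 and 9 with total counts. Nr1h3, the LXRα gene, had 42.1 and 47 against 143 and 193 CPM (1.91, SE 0.16) and its target Abca1 231 and 223 against 454 and 395 CPM (0.90, SE 0.10), whereas Pparg had 18.6 and 21.3 CPM with LTα1β2 and 3.21 and 3.83 CPM with both agents (log2 change -2.50, SE 0.18, edgeR adjusted p = 0.000138) and Scd2 74 and 81.9 against 24.2 and 24.7 CPM (-1.67, SE 0.14). Abcg1, another LXR target, fell (log2 change -0.32, edgeR adjusted p = 0.0495), a call lost in 8 of 11 alternatives. Mylip and Srebf1 of the same list did not pass. Of 24 cholesterol synthesis genes 7 fell and 1 rose, Mvd, and 2 fell without LTα1β2 replicate 2 and 4 without LCL161 plus LTα1β2 replicate 1. Mvd lost its call with DESeq2 (0.0804) and without 3 of the 4 libraries in turn. Dhcr7 (39.2 and 36.6 against 15.8 and 18.4 CPM), which acts late in the pathway, kept its call in every alternative run. The shares of the cholesterol list are 4.17% higher and 29.2% lower, beside the same 10.6% and 15.1%. The unfolded protein and integrated stress response gave 3 higher and 5 lower of 21, led by Ppp1r15a (GADD34, 44 and 49.2 against 129 and 161 CPM) and Phgdh (37.6 and 52.3 against 15.1 and 17.4 CPM), with Hspa5, Xbp1 and Atf4 among those that did not pass. The shares of this list are 14.3% and 23.8%, beside 10.6% and 15.1% of all genes tested. Higher and lower counts were 1 and 1 without LTα1β2 replicate 2, 1 and 7 with DESeq2 and 1 and 9 with total counts, where Xbp1 was also called (0.0258). Without LCL161 plus LTα1β2 replicate 1, 2 were lower, and without LTα1β2 replicate 1 or LCL161 plus LTα1β2 replicate 2, 1 was higher.

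Proliferation genes gave the largest share of decreases of all lists: 29 of 32 fell and none rose, with a median of -1.41. Cdc20, which starts anaphase, had 35.4 and 40.2 CPM with LTα1β2 and 8.32 and 7.35 CPM with both agents (log2 change -2.27, SE 0.15, edgeR adjusted p = 9.83e-05), Aurkb, a mitotic kinase, 27.9 and 27.9 CPM with LTα1β2 and 6.2 and 7.81 CPM with both agents (log2 change -1.99, SE 0.16, edgeR adjusted p = 0.000167), and Ccnb1 (cyclin B1) 49 and 53.7 CPM with LTα1β2 and 16.1 and 15.1 CPM with both agents (log2 change -1.72, SE 0.13, edgeR adjusted p = 0.000148). Rrm2, which makes nucleotides for DNA synthesis, had 118 and 135 CPM with LTα1β2 and 39.3 and 32.3 CPM with both agents (log2 change -1.82, SE 0.13, edgeR adjusted p = 0.000128), so genes of S phase and of mitosis were both lower. For each of the 4, both vehicle libraries lay above those with LTα1β2, at 84.1 and 69.9, 39.4 and 34, 122 and 102 and 232 and 249.8 CPM. Ccne2, Ccnd1 and E2f1 did not pass, although Ccne2 and E2f1 were called lower without replicates 1 and 2 of LCL161 plus LTα1β2 in turn (0.00176 and 0.00746) and with no filter beyond 1 read (6.17e-05 and 0.00376), Ccne2 also with DESeq2 (0.022) and E2f1 with total counts (0.0269). Mki67 lost its call without LTα1β2 replicate 2 (0.218) or LCL161 plus LTα1β2 replicate 2 (0.103). With a library left out in turn, 27 to 30 members fell. The motif TTTGAA (the cell cycle homology region) was in 8 of the 27 promoters of the list (29.6%) against 13.8% of all genes tested, and TTTGGCGC (E2F) in 2 of 27 (7.41%) against 0.813%. TTTGAA was in 17.1% of genes that rose at least 2-fold, 14.7% of those that fell at least 2-fold and 16.0% of all promoters. For TTTGGCGC these shares were 0%, 1.02% and 0.417%. Stromal markers fell beside the proliferation genes, as did Csf1, and which cells carried the change was not tested.

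Markers of further cell types were counted as well. The T cell, B cell, NK cell and mast cell markers with the most reads were Cd4 (6.76 and 9.68 against 2.41 and 2.37 CPM), Ighm (19.7 and 11.3 against 9.56 and 6.43 CPM), Ncr1 (0.638 and 0.0535 against 1.53 and 0.842 CPM) and Kit (1.98 and 0.695 against 4.96 and 2.6 CPM). Ncr1 and Kit did not pass, although both were called higher without LTα1β2 replicate 1 (0.0414 and 0.0447) and Kit with no filter beyond 1 read (0.00131). Cd4 and Ighm fell, the latter without a call when LTα1β2 replicate 1 or LCL161 plus LTα1β2 replicate 2 was left out (0.153 and 0.119), and Cd8a had no reads in the 4 libraries. Endothelial Kdr had 1.85 and 1.87 against 12.4 and 10.6 CPM (2.63, SE 0.24) and rose, Pecam1 had 6.51 and 6.31 against 2.85 and 2.68 CPM and fell, and Cdh5, Emcn and Vwf did not pass. Tek, which also rose, lay near 1 CPM and lost its call with DESeq2 and without any 1 library. The 8 osteoblast markers, of which 6 were tested, summed to 994 and 1541 CPM with LTα1β2 and 629.8 and 666 CPM with both agents. Of them Spp1 (osteopontin, which macrophages also make), Alpl and Sp7 fell, and none of the 3 was called without LTα1β2 replicate 2 and 1 without LCL161 plus LTα1β2 replicate 1. Pf4, the single platelet gene called, had 194 and 176 against 247 and 229 CPM, and its call was lost without any 1 library (0.105 to 0.294).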

How the data were processed

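Total RNA of 6 macrophage libraries was sequenced. The deposited table holds the authors' expected counts per gene, unnormalised, with 66.6% of non-zero values whole. The build GRCm38, the aligner STAR 2.7.3a and DESeq2 1.26.0 are named per the submitters' processing notes. Counting program, annotation and strand use: not given in the sources used here. Of 55023 genes listed, filterByExpr (minimum 10 reads) kept 18812. Rounded counts were fitted in edgeR 4.0.16 (R 4.3.3, TMM factors, group means of all 6 libraries, quasi-likelihood test, two-sided, Benjamini-Hochberg adjustment over all genes tested), with 3 residual degrees of freedom and a biological coefficient of variation of 13.6%. A floor of 3 reads is 0.139 to 0.23 CPM. DESeq2 was 1.42.0. The fit was tested on simulated data.

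Gene lists (670 genes, 628 tested), tests and the naming rule were chosen with earlier results of these data known. The rule names 9 pathway genes, the 15 largest increases and 15 largest decreases (called, groups apart, at least 5 CPM in the higher group, no predicted models), up to 4 called members per list by p, the highest marker of every other cell type, and members where 5 or fewer were called in a direction. Genes named outside it were chosen for their role after their values were seen. Lists are described by counts and medians, with no set test. Alternatives were relative log expression factors, total counts, DESeq2, 2 other filters, only the 4 libraries compared, a replicate block, and each of the 4 libraries left out. Promoter sequences are from RefSeq (GRCm38.p6), where 479 of 648 named or listed genes matched. The entries with date-like names (26) were tested and are not named, and some single genes are counted in their lists but not reported here.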

Additional observations from a re-analysis of the deposited data

How the results depend on the processing

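Of 191 genes named by the rule 185 were called. Of these 149 were called in all 11 alternatives run, 36 lost the call with a library left out (22 without LTα1β2 replicate 1, 33 without LTα1β2 replicate 2, 19 and 17 without LCL161 plus LTα1β2 replicates 1 and 2) and 16 in another alternative, and none changed sign. Of the 30 largest changes 29 were called in all. With a library left out, 2332 to 4604 genes were called (4832 with all), 736 to 1487 higher (1989), 1596 to 3316 lower (2843) and 1618 to 2736 at 2-fold or more (2585). DESeq2 called 1083 genes higher, and with no filter beyond 1 read 4367 were lower. Rela, not called with all libraries, was called higher, by 0.70, without LCL161 plus LTα1β2 replicate 1 (adjusted p = 0.0068) and lower, by -0.78, without its replicate 2 (0.00399). Counts of list members moved by over 1.5 times in 111 of 858 cases, 64 of them with a library left out. Replicate numbers are not stated to pair the libraries, and the deviations of same-numbered libraries correlated at 0.157 (both agents and LTα1β2), 0.138 and 0.0941. With the replicate number as a block 4629 genes were called, 4405 of them shared, and of the named genes Ddit3 (0.0621), Abcg1 (0.0669) and Pf4 (0.0596) lost their calls, as did Mki67 (0.0617) of the others described. The 2 libraries per group and 3 residual degrees of freedom limit the precision, and below about 0.23 CPM a gene lies under the floor of 3 reads in at least 1 library. Causes of these shifts were not tested, except that fewer libraries leave fewer degrees of freedom.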
